A study of Homo sapiens with 4 samples.

Results

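The genes of the mitochondrial respiratory chain and of ATP synthase were compared between GIST-T1 cells that received a miR-34a mimic and GIST-T1 cells that received a negative control RNA. Members were chosen by name alone: every probe on the array, control spots aside, whose gene name starts with NDUFA, NDUFB, NDUFC, NDUFS, NDUFV, UQCR or ATP5, or is COX followed by a number, or is SDHA, SDHB, SDHC, SDHD or CYC1, without names that end in P and a number. This gave 102 genes with 134 probes, of the 36337 gene names and 50599 probes on the array. Of the 102 genes, 97 (126 probes) were tested, since at least 1 probe of theirs was marked well above background on each array of a condition. Over the whole array, 16192 gene names (21474 probes) were tested. The names took in COX4NB, now called EMC8, which is a subunit of a protein insertion complex of the endoplasmic reticulum and not of the respiratory chain. It is counted in the totals and placed in no complex.

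GIST-T1 is an established human cell line from a gastrointestinal stromal tumor (GIST). For each of the 4 RNA samples, 3000000 cells were nucleofected with 100 pmol of mirVana miR-34a mimic, a synthetic double-stranded form of the miRNA, or of mirVana Negative Control #1, and total RNA was taken 48 h later. From each sample, 100 ng of RNA received the dye Cy3 and was hybridized to an Agilent array read in a single color, whose probes have 60 bases, with 2 arrays per condition, all on 1 slide and in 1 scan. The labels do not say whether the replicates were separate cultures, so that p-values measure the spread between these arrays only, which may be technical.

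The respiratory chain passes electrons from NADH (complex I) and succinate (complex II) through complex III to complex IV, which reduces oxygen, and the proton gradient built on the way drives ATP synthase. Most subunits are encoded in the nucleus and imported, whereas a small core set is encoded in the mitochondrial genome itself and transcribed there as long polycistronic RNAs. The chain has a special place in GIST because a subset of these tumors, without mutated KIT or PDGFRA, lacks functional complex II. According to the study, GIST-T1 cells carry an activating KIT mutation, so that they do not belong to that subset.

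The mature strand that the mimic stands for is shown first, because its seed decides which messenger RNAs it can pair with. Its sequence is that of RefSeq for GRCh38.p14, chr1:9151735-9151756 on the minus strand, and the capitals mark the seed, bases 2 to 8.

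hsa-miR-34a-5p: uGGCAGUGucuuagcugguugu

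The letters that pair with the seed, CACTGCC, were in 220 of the 50599 probe sequences (0.435%), in 0 of the 131 probes of nuclear members and in 0 of the 14 probes of mitochondrially encoded genes. Each probe covers 60 bases of a transcript, and the rest of the transcripts was not searched.

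The probes for COX1, COX2 and COX3, the members encoded in the mitochondrial genome, are shown because they carry the results on mitochondrial transcripts among the members. They are in the orientation of the deposited probe column and carry hg19 positions. COX2 lies at chrM:7987-8046 and COX3 at chrM:9410-9469. The array's annotation places the COX1 probe not on the mitochondrial genome but at chr1:567567-567626, where the nuclear genome holds a copy of mitochondrial DNA, so that RNA from either place could bind it.

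COX1: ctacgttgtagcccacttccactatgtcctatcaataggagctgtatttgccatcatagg

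COX2: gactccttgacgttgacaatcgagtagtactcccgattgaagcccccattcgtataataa

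COX3: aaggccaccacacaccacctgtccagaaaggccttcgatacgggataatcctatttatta

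All signals below are log2 processed signals relative to the 75th percentile of the array, and all differences are miR-34a mimic minus negative control on that log2 scale, with a gene represented by its brightest tested probe. The cells carried the markers of their label: KIT, ANO1, ETV1, PDGFRA, PRKCQ and CD34 were well above background on all 4 arrays. Their mean signals ran from 1.16 (PRKCQ) to 7.11 (KIT). Markers of other cell types were mixed. Of smooth muscle, DES and ACTG2 were well above background on 4 arrays (mean signals 0.91 and -0.37), CNN1 on 1 and MYH11 on 0. Of epithelium, EPCAM, KRT8 and KRT18 were so on 4 arrays, with mean signals of -2.06, 3.40 and 6.24, and CDH1 on 0. Of leukocytes, CD14 was so on 4, CD3E on 3 and PTPRC on 2 arrays, all with a mean signal under -2, and of endothelium, CDH5 on 2, VWF on 1 and PECAM1 on 0. PDGFRA is a receptor tyrosine kinase gene and a predicted target of miR-34a. It had signals of 4.48 and 4.35 on the mimic arrays and 5.98 and 5.92 on the control arrays. The difference was -1.53 (SE 0.08, adjusted p = 0.0948 by limma). The study picked this gene among predicted targets that were lower in its own microarray analysis, so that these values are no independent check of the mimic. It also reported the suppression of PDGFRA by quantitative RT-PCR.

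The nuclear genes of the chain had differences on either side of 0, whereas the mitochondrially encoded genes all had small positive differences. Of the 97 tested member genes, 0 were lower and 0 were higher past a fold change of 1.5, against 4.8% of all tested probes lower and 2.11% higher. The median difference was 0.03 over the 94 nuclear members and -0.01 over all 16192 gene names. Limma fits a linear model to every probe, with a spread borrowed across probes. At an unadjusted p under 0.05 by limma, 1 member gene was lower and 10 were higher. Counted by probes, 3 of the 126 were lower (2.38%) and 13 higher (10.3%), against 11.6% and 12.7% of all probes tested. Both mimic arrays lay below both control arrays in 18 member genes and above them in 39. By probes this held for 25 (19.8%) and 49 (38.9%) of the 126, and over all probes for 30.1% and 30.4%.

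No member passed correction for multiple testing. At an adjusted p under 0.05 by limma, 0 member genes and 0% of all probes were called, and no probe on the array had an adjusted p below 0.0948. An exact permutation test of 1 gene, two-sided, cannot go below 0.33 with 2 arrays in each condition. The methods' t-test called 2 member genes lower and 19 higher at an unadjusted p under 0.05 and 0 after Benjamini-Hochberg adjustment. The shares of all probes that this t-test called are not given here, so that no excess is read from these counts. With a variance trend in limma, meaning that the variance may depend on the signal, 6 members were called at an adjusted p under 0.05: COX1, COX2, COX3, NDUFB7 and ATP5J2 higher and NDUFAF2 lower, against 3.81% of all probes higher and 3.6% lower. With an array left out, a condition keeps 1 array only, so that no counts at a p threshold are given for such fits.

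**Figure D1:**
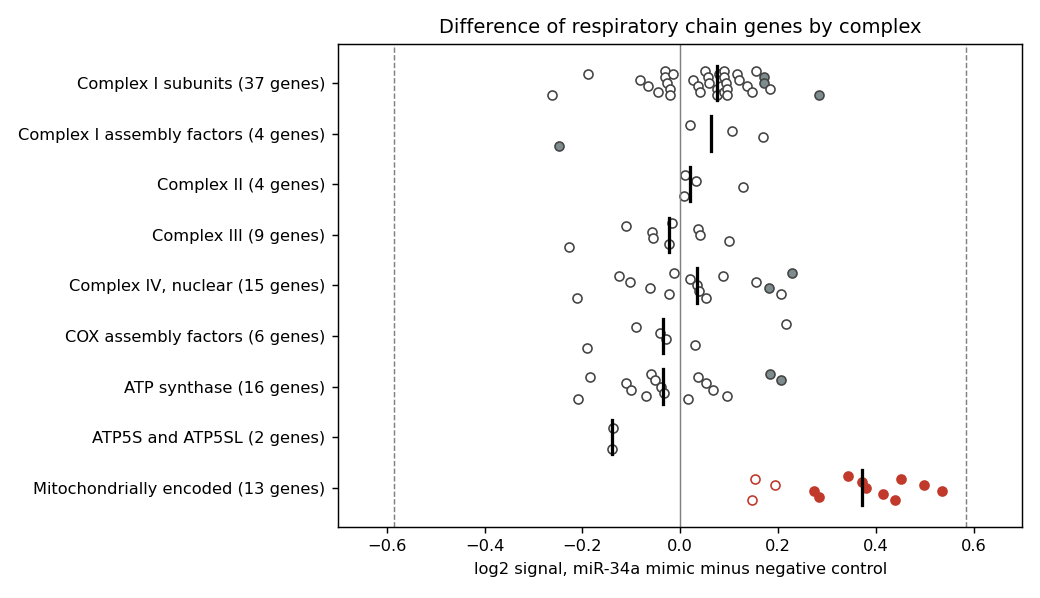
Difference of each tested gene (log2 signal, miR-34a mimic minus negative control) by complex, with filled points for an unadjusted p under 0.05 by limma, a black bar at the median and dashed lines at a 1.5-fold change. The nuclear groups lie around 0, and the 13 mitochondrially encoded genes, of which COX1, COX2 and COX3 are members, lie between 0.15 and 0.54.

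The arrays could have shown changes of moderate size in most of the nuclear members. The SD between the arrays of a condition had a median of 0.04 for the mimic and 0.03 for the control over the 97 member genes, against 0.07 and 0.05 over all gene names. The half-width of the 95% interval from limma had a median of 0.18 over the nuclear members. In 89 of the 94 nuclear members the whole interval lay within a 1.5-fold change in either direction. The exceptions were NDUFA12, NDUFS8, UQCRB, COX19 and NDUFA4L2, whose intervals reached past it. NDUFA4L2 had the widest interval, from -0.65 to 1.06.

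**Figure D2:**
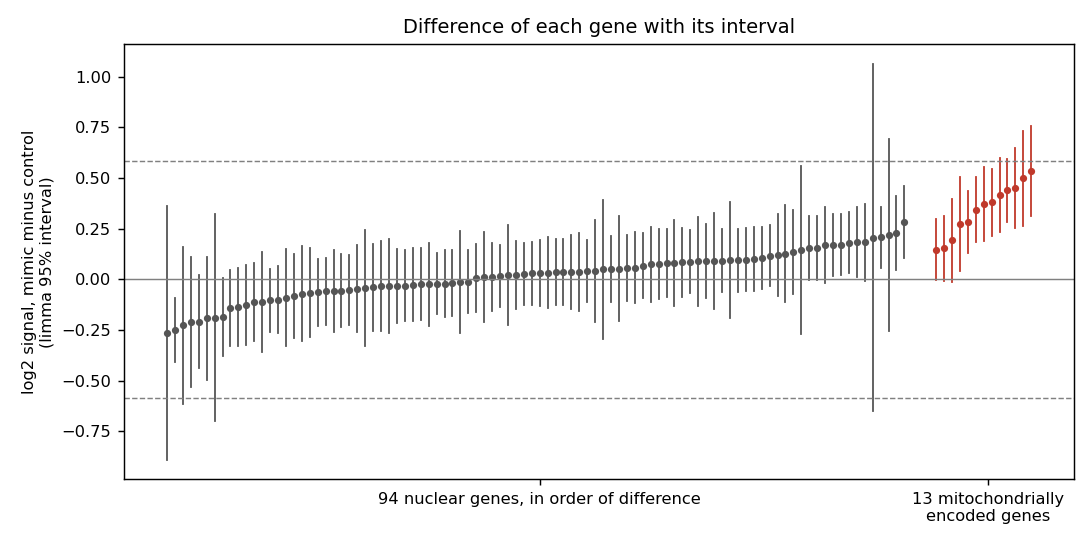
Difference (log2 signal, mimic minus control) of the 94 tested nuclear members, in order, and of the 13 mitochondrially encoded genes, with the 95% interval from limma as a vertical line and a 1.5-fold change as dashed lines. The intervals of 89 nuclear members stay between the dashed lines.

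COX1, COX2 and COX3 encode the catalytic core of complex IV (cytochrome c oxidase) and were higher on both mimic arrays than on both control arrays. COX1, which carries the heme and copper center where oxygen is reduced, had signals of 6.35 and 6.29 with the mimic and 5.85 and 5.71 with the control. Its difference was 0.54 (SE 0.08, 95% interval 0.31 to 0.76, unadjusted p = 0.0032 and adjusted p = 0.095 by limma), a fold change of 1.45. COX2, which accepts electrons from cytochrome c, had signals of 7.61 and 7.62 against 7.34 and 7.32. The groups did not overlap, and the difference was 0.28 (SE 0.05, unadjusted p = 0.0076 and adjusted p = 0.113 by limma). COX3, a core subunit without redox centers, had signals of 7.61 and 7.54 against 7.17 and 7.07, a difference of 0.45 (SE 0.07, unadjusted p = 0.0038 and adjusted p = 0.098 by limma). For each of the 3 genes the gap between the conditions exceeded the gap between arrays of the same condition.

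The same pattern was measured across the other protein genes of the mitochondrial genome, which the naming rule did not take in. All 13 such genes (14 probes, COX1 to COX3 included) had a positive difference, with a median of 0.37 and a range from 0.15 to 0.54. Both mimic arrays lay above both control arrays in 14 of the 14 probes, where 30.4% of all probes tested did so. By limma, 10 of the 13 genes were higher at the unadjusted threshold, against 12.7% of all probes, and 0 passed after adjustment. The median stayed between 0.34 and 0.43 and all 13 differences stayed above 0 in each alternative that changes the values. The exact list of these genes was drawn up with earlier results of these data known, and the 13 genes share a genome, so that they are not 13 independent measurements. The RNA came from whole cultures, in which more cells with a higher level and a higher level in each cell cannot be told apart.

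Among the mitochondrially encoded subunits of complex I, ND1, which helps form the quinone site, had signals of 4.57 and 4.55 with the mimic and 4.14 and 4.11 with the control. The difference was 0.44 (SE 0.05, unadjusted p = 0.0019 by limma). ND5, a proton-pumping subunit, had 3.72 and 3.80 against 3.19 and 3.33, a difference of 0.50 (SE 0.08). ND6 is transcribed from the other strand of the mitochondrial genome than the rest, and its probe lies at chrM:14449-14508 on the minus strand. Its signals of 0.51 and 0.50 against 0.10 and 0.16 gave a difference of 0.38 (SE 0.06). ND2 differed by 0.34, and the 2 probes of ND4 differed by 0.34 and 0.27. ND3 and ND4L had the smallest differences, 0.15 each, with an unadjusted p of 0.057 and 0.055 by limma.

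CYTB encodes cytochrome b, the only subunit of complex III made in mitochondria. Its signals were 7.63 and 7.60 with the mimic and 7.29 and 7.20 with the control, a difference of 0.37 (SE 0.06). ATP6, a part of the proton channel of ATP synthase, had 7.48 and 7.39 against 7.01 and 7.03, a difference of 0.41 (SE 0.06). ATP8, whose reading frame overlaps that of ATP6, had 5.20 and 5.30 against 5.02 and 5.09. The difference was 0.19 (SE 0.07, unadjusted p = 0.058 by limma). With the variance trend, 9 of the 13 genes were called higher by limma after adjustment, against 3.81% of all probes. With normexp background correction 7 of the 13 were called, COX1, COX2 and COX3 among them, where over all probes this correction called 2.06% as higher.

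**Figure D3:**
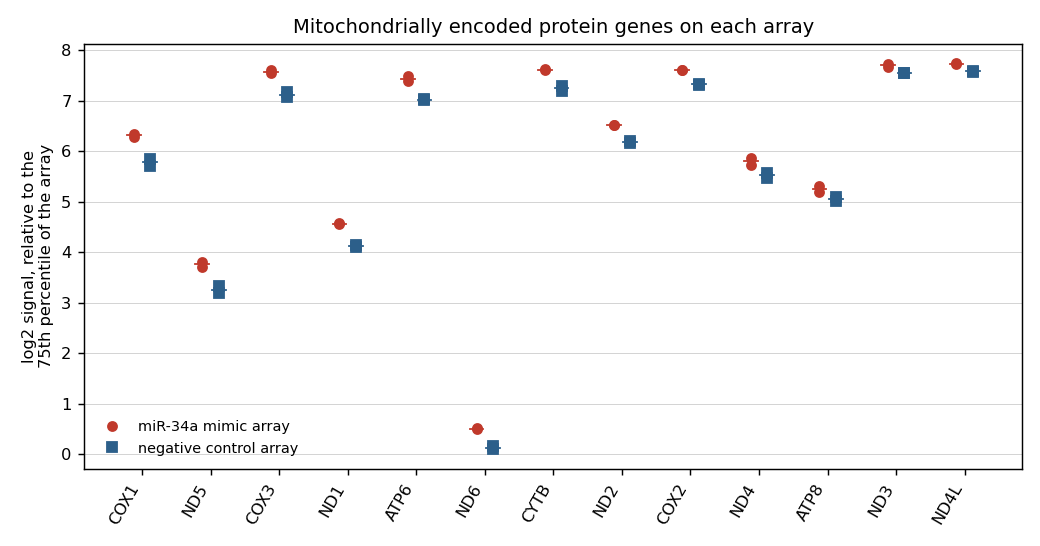
Log2 signal on each array (circles, miR-34a mimic; squares, negative control; short lines, means of 2 arrays) for the 13 mitochondrially encoded protein genes, in order of their difference. In each gene both mimic arrays lie above both control arrays.

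Signal strength and base composition of the probes were set beside this difference. Among the 14 nuclear members with a mean signal of 7 or more, the median difference was -0.02 and 0 had an unadjusted p under 0.05. Over all 296 gene names that bright, the median was -0.10. Among these 296 names, limma put 55 lower and 9 higher past that same threshold. The GC content of the probes was 31.7% to 48.3% for the 13 mitochondrially encoded genes and 33.3% to 66.7% for the nuclear members. The 71 nuclear members with a probe GC content of up to 48.3% had a median difference of 0.02, and their highest difference was 0.22. Of these 71, 2 were higher at an unadjusted p under 0.05 by limma, where 7 of all 94 nuclear members were so. The part of signal strength and of GC content in the differences was not tested beyond these values.

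Complex I, the NADH dehydrogenase, has a peripheral arm with flavin and iron-sulfur clusters and a membrane arm that pumps protons. All 37 nuclear subunit genes on the array were tested, and 26 had a positive and 11 a negative difference, with a median of 0.08 (0.05 to 0.11 over the alternatives). Both mimic arrays lay above both control arrays in 21 and below them in 1, against 30.4% and 30.1% of all probes tested. At an unadjusted p under 0.05 by limma, 3 were higher (NDUFB7, NDUFC2 and NDUFS7) and 0 were lower, against 12.7% and 11.6% of all probes. The 2 probes of NDUFC2 went opposite ways, with 0.17 and -0.19.

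NDUFB7, an accessory subunit of the membrane arm, had the highest difference of the nuclear members when each is read from its brightest probe. Its signals were 2.95 and 2.97 with the mimic and 2.72 and 2.63 with the control, a difference of 0.28 (SE 0.06, 95% interval 0.11 to 0.46, unadjusted p = 0.012 and adjusted p = 0.129 by limma). At the other end, NDUFA12 had 3.81 and 4.35 against 4.41 and 4.28, so that the conditions overlapped. Its difference of -0.26 had an SE of 0.22 and turned positive without mimic array 1, and its other probe gave 0.03.

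Among the core subunits, NDUFV1, which binds the flavin that accepts electrons from NADH, had 6.49 and 6.57 with the mimic and 6.58 and 6.54 with the control. NDUFV2, which carries an iron-sulfur cluster, had 5.37 and 5.33 against 5.33 and 5.19, and NDUFS1, which carries several, had 5.00 and 5.12 against 5.12 and 5.16. In these 3 genes the conditions overlapped.

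NDUFS7, which passes electrons to quinone, had 4.87 and 4.84 against 4.69 and 4.67, a difference of 0.17 (SE 0.05, unadjusted p = 0.038 by limma). NDUFS8, another iron-sulfur subunit, had 5.997 and 5.55 against 5.94 and 5.98. Its mimic arrays lay further apart than the means of the conditions, and its difference of -0.19 (SE 0.18) turned positive without mimic array 2.

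The assembly factors of complex I are not part of the finished enzyme. NDUFAF2, which acts late in assembly, was the only member gene lower at an unadjusted p under 0.05 by its brightest probe. It had 2.23 and 2.21 with the mimic and 2.49 and 2.45 with the control, a difference of -0.25 (SE 0.05, 95% interval -0.41 to -0.09, unadjusted p = 0.013 and adjusted p = 0.130 by limma). Its other probe gave -0.26 (unadjusted p = 0.086 by limma). The highest of the 4 assembly factors was NDUFAF1, with 2.94 and 2.96 against 2.83 and 2.73, a difference of 0.17 (SE 0.06).

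Complex II is succinate dehydrogenase, the enzyme that joins the citric acid cycle to the chain, and it is entirely nuclear encoded. SDHA, the flavoprotein that oxidizes succinate, had 5.45 and 5.39 with the mimic and 5.43 and 5.39 with the control. SDHB, the iron-sulfur subunit, had 4.86 and 4.83 against 4.84 and 4.78. SDHD, a membrane anchor, had 2.84 and 2.70 against 2.79 and 2.74. In these probes, the brightest of each gene, the conditions overlapped, with differences of 0.01, 0.03 and 0.01.

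SDHC, the other membrane anchor, had 3.91 and 4.07 against 3.88 and 3.84, a difference of 0.13 (SE 0.08, unadjusted p = 0.206 by limma). The dimmer probes did not all go the same way. The 4 tested probes of SDHA gave 0.01 to 0.16, and the highest of them separated the conditions, with 4.65 and 4.63 against 4.49 and 4.47 (unadjusted p = 0.043 and adjusted p = 0.193 by limma). The 3 of SDHD gave -0.14 to 0.24, the highest with 2.23 and 2.17 against 1.97 and 1.96 (unadjusted p = 0.018 and adjusted p = 0.141 by limma). The 3 of SDHC gave -0.14 to 0.14. The median over the 4 genes was 0.02, and the interval of each brightest probe stayed within a 1.5-fold change. All 4 genes were well above background on the arrays of both conditions.

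Complex III passes electrons from quinol to cytochrome c. Of its 9 nuclear genes, 3 had a positive and 6 a negative difference, the median was -0.02, and 0 passed the unadjusted threshold by limma, although a dimmer probe of UQCR10 did, with 0.22 (unadjusted p = 0.022). UQCRB, which binds quinone, had the lowest difference: 5.29 and 4.96 with the mimic against 5.36 and 5.35 with the control, a difference of -0.23 (SE 0.13). Its other probe gave 0.14.

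UQCRC1, a core protein of the matrix side, had the highest difference, with 4.26 and 4.21 against 4.14 and 4.13, or 0.10 (SE 0.05). The redox subunits lay close to 0: CYC1, cytochrome c1, had 5.48 and 5.44 against 5.58 and 5.46. UQCRFS1, the Rieske iron-sulfur protein, had 6.96 and 6.87 against 6.97 and 6.98, a difference of -0.06 (SE 0.06).

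**Figure D4:**
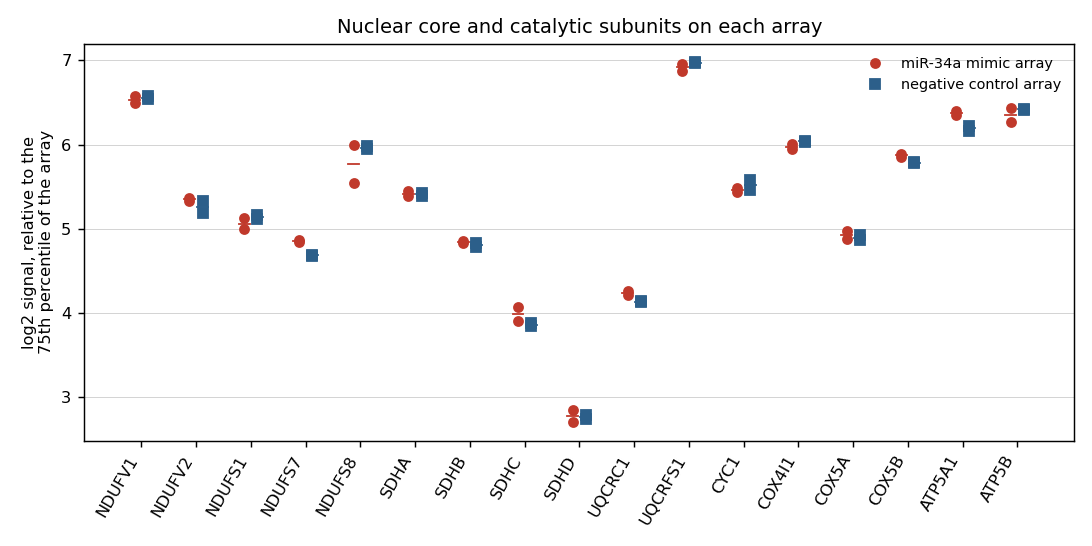
Log2 signal on each array (circles, miR-34a mimic; squares, negative control; short lines, means of 2 arrays) for nuclear core and catalytic subunits of complexes I to IV and ATP synthase. The arrays of the conditions lie close together, and among these genes 2, NDUFS7 and ATP5A1, had an unadjusted p under 0.05 by limma.

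The nuclear subunits of complex IV surround the mitochondrially encoded core and include tissue-specific isoforms. Of the 19 such genes, 15 were tested, 9 had a positive and 6 a negative difference, and the median was 0.03. COX4I2 (a lung and hypoxia isoform), COX6A2 (the heart and muscle isoform), COX7B2 and COX8C had no probe that passed this filter. Their common counterparts were all detected.

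COX4I1, the ubiquitous counterpart of COX4I2, had 5.94 and 6.01 with the mimic and 6.04 and 6.03 with the control. COX6A1 had 7.53 and 7.73 against 7.56 and 7.59. COX8A had 8.15 and 8.13 against 8.22 and 8.25. Their differences of -0.06, 0.05 and -0.10 had p-values of 0.34, 0.58 and 0.13 by limma, unadjusted.

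COX5A, a matrix-side subunit, had 4.88 and 4.98 against 4.92 and 4.87. COX5B, which binds zinc, had 5.89 and 5.86 against 5.79 and 5.78, a difference of 0.09 (SE 0.05). COX7B had 5.77 and 5.77 against 5.78 and 5.69, a difference of 0.03. None of these 3 passed the unadjusted threshold.

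COX7A1, the heart and skeletal muscle isoform of subunit 7A, was well above background on all arrays and had the highest difference of the nuclear complex IV genes. Its signals were 6.04 and 6.06 with the mimic and 5.87 and 5.78 with the control, a difference of 0.23 (SE 0.06, unadjusted p = 0.027 and adjusted p = 0.162 by limma). Its ubiquitous counterpart COX7A2 had 7.12 and 7.17 against 7.32 and 7.22, a difference of -0.13 (SE 0.07, unadjusted p = 0.145 by limma). COX7A2L, which takes part in joining complexes III and IV into supercomplexes, had 4.91 and 4.93 against 4.92 and 4.95. The difference between the isoforms' responses was not tested.

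COX6B1, the common form of the subunit that faces the intermembrane space, had 4.87 and 4.86 against 4.69 and 4.68, a difference of 0.18 (SE 0.05, unadjusted p = 0.030 by limma). The testis isoform COX6B2 had the lowest difference of the complex, -0.21 (SE 0.11), with 5.87 and 5.61 against 5.97 and 5.93. A second COX6B2 probe was well above background on 0 arrays, so that what the first probe measured is uncertain.

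NDUFA4, once counted with complex I and since placed in complex IV, had 5.90 and 5.94 against 5.76 and 5.77, a difference of 0.16 (SE 0.05, unadjusted p = 0.052 by limma). Its hypoxia-induced relative NDUFA4L2 was dim and variable, with -2.03 and -1.40 against -1.69 and -2.15. The conditions overlapped there.

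The assembly factors of complex IV insert heme and copper or handle the COX subunits. Of 7 genes, COX18 was well above background on 0 arrays, and the other 6 had differences from -0.19 (COX15, SE 0.10) to 0.22 (COX19, SE 0.16). COX15, which makes heme A, had -1.04 and -1.25 with the mimic and -0.90 and -1.02 with the control, whereas its other probe gave 0.38 (unadjusted p = 0.090 by limma). This was the widest disagreement among the 21 members with several tested probes, of which 10 had probes of opposite sign and 0 had such probes more than 1.5-fold apart. COX19, a copper-related factor, had -0.94 and -0.54 against -0.999 and -0.92. The conditions overlapped there.

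ATP synthase has a catalytic head and a membrane rotor. All 16 nuclear genes on the array were tested, and 7 had a positive and 9 a negative difference, with a median of -0.04. ATP5A1, the alpha subunit of the head, had 6.40 and 6.35 with the mimic and 6.22 and 6.16 with the control, a difference of 0.18 (SE 0.06, unadjusted p = 0.043 by limma). ATP5B, the catalytic beta subunit, had 6.43 and 6.27 against 6.42 and 6.41, with overlapping conditions and a difference of -0.07 (SE 0.08).

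The genes ATP5G1, ATP5G2 and ATP5G3 encode the same mature rotor ring subunit c. ATP5G1 had 3.42 and 3.38 with the mimic against 3.48 and 3.44. ATP5G2 had 6.53 and 6.61 against 6.51 and 6.56, and ATP5G3 had 7.32 and 7.40 against 7.42 and 7.41. Their differences of -0.06, 0.04 and -0.05 were all at an unadjusted p of 0.36 or more by limma.

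The highest difference of the complex was that of ATP5J2, the membrane subunit f, with 5.72 and 5.71 against 5.51 and 5.51, or 0.21 (SE 0.05, unadjusted p = 0.020 and adjusted p = 0.148 by limma). Its other probe gave -0.0047 (unadjusted p = 0.948 by limma). The lowest was ATP5L2, a near copy of the subunit g gene ATP5L, with 4.40 and 4.29 against 4.61 and 4.50, or -0.21 (SE 0.08). A second ATP5L2 probe was well above background on 0 arrays, so that it is uncertain which copy the first measured. ATP5L itself had 7.42 and 7.40 against 7.41 and 7.38. ATP5S and ATP5SL, which are no subunits despite their names, differed by -0.14 each (SE 0.07 and 0.06). The other probe of ATP5S gave -0.24 (SE 0.05, unadjusted p = 0.015 and adjusted p = 0.134 by limma), with -0.07 and -0.11 against 0.17 and 0.14.

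No direction is given for any of the nuclear complexes. The median of the complex I subunits stayed between 0.05 and 0.11 over the alternatives. These 37 genes were read from the same arrays, so that they are not independent measurements. Only 3 of the 37 passed the unadjusted limma threshold as higher and 0 as lower, where 12.7% and 11.6% of all probes did. The medians of complexes II, III and IV, of the COX assembly factors and of ATP synthase changed sign with the processing or the array left out. That of the 4 complex I assembly factors stayed between 0.02 and 0.11. However, 0 of these 4 were higher at an unadjusted p under 0.05 by limma, and 1, NDUFAF2, was lower. The median of ATP synthase was 0.05 with quantile normalization and 0.02 without mimic array 2. That of complex IV was 0.10 with quantile normalization and -0.02 without mimic array 2. That of the COX assembly factors was 0.030 when the median over the probes of each gene was taken.

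**Figure D5:**
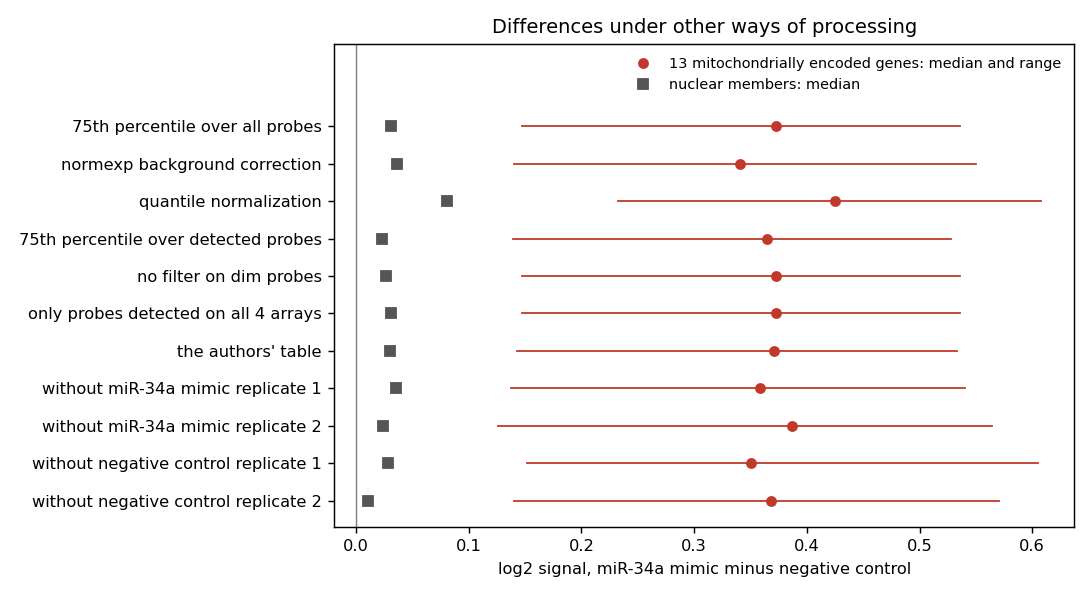
Differences (log2 signal, mimic minus control) under each alternative that changes the values, with the median (circles) and range (lines) of the 13 mitochondrially encoded genes and the median of the nuclear members (squares). The mitochondrially encoded median lies between 0.34 and 0.43 and the nuclear median between 0.01 and 0.08.

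Genes around the chain were read from lists drawn up beside the members. Regulators of mitochondrial gene expression had a median difference of -0.15 over 15 tested genes of 16, with 10 negative and 5 positive, and 5 lower and 1 higher at an unadjusted p under 0.05 by limma, where 11.6% of all probes were lower and 12.7% higher. PPARGC1B, a coactivator of mitochondrial biogenesis, had -0.98 and -1.10 with the mimic and -0.38 and -0.26 with the control. Its difference of -0.72 (SE 0.08, unadjusted p = 0.0014 and adjusted p = 0.0948 by limma) was the largest on the list.

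NRF1, a transcription factor of many respiratory chain genes, differed by -0.29 (SE 0.05, unadjusted p = 0.0068 by limma), and YY1 by -0.26 (SE 0.06, unadjusted p = 0.014 by limma). PPRC1 and HIF1A were the other 2 regulators lower at the unadjusted threshold, by -0.21 and -0.16. MYC was the regulator higher at that threshold, by 0.53 (SE 0.07). Its probe was dim, with -1.74 and -1.72 with the mimic against -2.33 and -2.19 with the control. TFAM, which packs and transcribes mitochondrial DNA, differed by -0.16 (SE 0.07, unadjusted p = 0.077 by limma), and POLRMT, the mitochondrial RNA polymerase, by 0.09 (SE 0.05, unadjusted p = 0.169 by limma). In TFAM both mimic arrays lay below, and in POLRMT above, both control arrays.

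The citric acid cycle had a median of 0.09 over 14 genes, with 3 higher (DLST, SUCLA2 and IDH3B) and 0 lower at an unadjusted p under 0.05 by limma, against 12.7% and 11.6% of all probes. DLST, a subunit of the 2-oxoglutarate dehydrogenase complex, had the highest difference of the list, 0.44 (SE 0.06). The 26 other genes listed around the chain are mostly carriers and assembly factors, but also USMG5, a small ATP synthase subunit, ATPIF1, its inhibitor, and PET112, which acts in mitochondrial tRNA charging. They had a median of 0.10, with 3 higher (ATPAF1, ATPAF2 and TIMMDC1) and 0 lower, again against 12.7% and 11.6% of all probes. ATPAF1 and ATPAF2, the assembly factors of the ATP synthase head, differed by 0.30 and 0.23. The ATPAF1 probe was dim, with -2.58 and -2.64 with the mimic against -2.90 and -2.91, and was well above background on 3 arrays. CYCS, cytochrome c, had the lowest difference, -0.43 (SE 0.22, unadjusted p = 0.129 by limma).

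Mitochondrial ribosomal proteins translate the mitochondrially encoded subunits. Their 77 names had a median of 0.03, with 5 higher and 6 lower at an unadjusted p under 0.05 by limma, against 12.7% and 11.6% of all probes. Among the 6 lower was MRPL23-AS1 (-0.46), an antisense RNA that shares the name and is no ribosomal protein. The names also took in MRPS36, now called KGD4 and so no longer named as a ribosomal protein. In all of these lists, 0 genes passed an adjusted p of 0.05 by limma.

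The start regions of the nuclear members were examined for the motifs of factors known to act on respiratory chain genes, which the naming rule did not use. RefSeq promoters (GRCh38.p14), from 250 bases before to 50 after the start, were found for 77 of the 94 tested nuclear members, and each motif was searched on both strands. The NRF1 motif, GCGCANGCG, was in 22 of the 77 (28.6%) and in 7.52% of all 35116 promoters. The ETS motif, CCGGAAG, bound by the factor that contains GABPA, was in 24 (31.2%) against 10.3%. The YY1 motif, AAGATGGCG, was in 9 (11.7%) against 1.75%. Of the 77 members, 43 had at least 1 of the motifs and 11 had 2 or more. The 35116 promoters take in those of genes that were not tested on these arrays, and base composition was not matched. The shares are therefore a description only.

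For each motif, 1 matching stretch is shown, with the match in capitals and 20 bases on each side, on the strand of the gene. NDUFA12 lies at chr12:95003785-95003833 on the minus strand, NDUFS3 at chr11:47578952-47578998 on the plus strand, with the ETS motif read on the opposite strand, and ATP5J at chr21:25735083-25735131 on the minus strand. Among the members whose stretch lies wholly before the start, the member with the largest difference in either direction was taken.

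NDUFA12, NRF1: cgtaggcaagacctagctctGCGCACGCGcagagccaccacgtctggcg

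NDUFS3, ETS: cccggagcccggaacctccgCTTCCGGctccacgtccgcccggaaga

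ATP5J, YY1: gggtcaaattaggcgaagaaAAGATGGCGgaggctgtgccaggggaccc

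The median difference was 0.05 in the 22 members with the NRF1 motif (range -0.26 to 0.18) and 0.02 in those without it. It was 0.03 with and 0.04 without the ETS motif, and 0.08 with and 0.02 without the YY1 motif. The ranges with and without each motif overlapped. A match of letters is a description of the sequence and not a measured binding site.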

How the data were processed

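For each array, the authors deposited spot intensity values from Agilent Feature Extraction (version 10.7 per the labels, 10.7.3.1 per the file headers), which subtracts background and spatial trends but does not scale arrays to each other. Their table of all arrays differed from the scanner output by at most 0.496%. Control spots and outlier spots (293 to 424 of 58717 per array) were left out, 0 spots were saturated, and spots of a probe were averaged. The log2 processed signal minus the 75th percentile of the array was tested with limma 3.58.1 in R 4.3.3, and Benjamini-Hochberg adjustment ran over the 21474 probes that the scanner marked well above background on each array of 1 condition or of both. Of the 50599 probes, 41.8% to 45.2% were well above background on an array, and precision is limited by having 2 arrays per condition. A gene was read from its brightest tested probe, chosen by the same signals in each alternative.

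Members, lists and tests were chosen with earlier results of these data known. Named genes were the lowest and highest of each complex, core and catalytic subunits, paired isoforms, untested members and any member past 1.5-fold (0 found). The values of 1 core subunit are not reported here. Other genes named were picked after their values were seen. The 1.5-fold threshold is that of the study, whose methods name no scaling or filter for the arrays and name t tests for continuous variables in general, which were run here as the methods' t-test. Alternatives were normexp (offset 50), quantile normalization, the percentile over detected probes, other filters on dim probes, the authors' table, a replicate block, a variance trend, the methods' t-test, each array left out, the median over a gene's probes, and subunits only. The mitochondrially encoded genes were put through the same alternatives once their values had been seen. The limma fit was tested on simulated data. hg19 positions are the array's annotation.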

Additional observations from a re-analysis of the deposited data

How the results depend on the processing

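The 13 mitochondrially encoded genes kept a positive difference in all alternatives that change the values. Their median was 0.34 with normexp and 0.43 with quantile normalization, and 0.35 to 0.39 with each array left out. The median of COX1 to COX3 was 0.56 with quantile normalization. With quantile normalization the median was 0.085 over all members, 0.062 for complex II, 0.10 for complex IV and 0.054 for ATP synthase, and 1 member (COX1) was higher by more than 1.5-fold. With normexp the median of ATP synthase was 0.0038. The median over the probes of a gene gave 0.030 for the COX assembly factors. Without a filter on dim probes, 1 member was lower and 1 higher by more than 1.5-fold.

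At an unadjusted p under 0.05 by limma, member genes lower and higher numbered 4 and 17 with normexp and 5 and 17 with the variance trend. The methods' t-test gave 2 and 19. There were 18 higher with quantile normalization and 6 without a filter. The shares of all probes at this unadjusted threshold are not given for the alternatives, so that no excess is read from these counts. At an adjusted p under 0.05, 3 members were called with normexp and 6 with the variance trend. With the replicate block, 4 members were higher at the unadjusted threshold and the smallest adjusted p of a member was 0.223, and the differences between replicates 1 and 2 of the conditions correlated at -0.03 over the tested probes, so that the numbers were not taken as pairs. Leaving out each array in turn gave 0 to 1 members higher by more than 1.5-fold. It gave medians of -0.052 to 0.018 for ATP synthase and -0.024 to 0.044 for complex IV. Of 728 alternative values for 56 genes, 27 changed sign, in 19 genes whose difference was at most 0.26 in size, and the cause was not tested. With 2 arrays per condition, differences of the size measured in most nuclear members cannot be told from the spread between arrays.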

Other observations

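The array also carries probes for the MTRNR2L genes, nuclear genes whose sequences resemble the mitochondrial 16S ribosomal RNA. They were looked at after the values of the mitochondrially encoded genes had been seen, and they did not share 1 direction. MTRNR2L1 differed by -0.37 (unadjusted p = 0.041 by limma), with signals of 8.68 and 8.41 with the mimic against 8.96 and 8.87. The 3 probes of MTRNR2L2 differed by 0.20, 0.10 and -0.31, and MTRNR2L6 by 0.07. MTRNR2L3, MTRNR2L7 and MTRNR2L10 differed by 0.07, 0.19 and 0.14, and MTRNR2L8 by -0.13. The largest difference was that of MTRNR2L9, -0.69 (SE 0.60), with 2.34 and 0.74 against 2.29 and 2.18, so that the conditions overlapped. MTRNR2L4 and MTRNR2L5 were well above background on 0 arrays and were not tested. No hypothesis was tested on these values.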
